A study of Mus musculus with 8 samples.

Results

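Cyclic nucleotide phosphodiesterases were followed in single nuclei of the mouse primary visual cortex (V1) at postnatal day 21. The 10 member genes were Pde1a, Pde1b, Pde1c, Pde2a, Pde3a, Pde4b, Pde4d, Pde7b, Pde8b and Pde10a, taken by symbol from 26711 features, and all 10 were found. They were selected on measured values of these data, namely their CPM (UMI counts scaled to a fixed total) across cell types and groups, and Pde10a on its rearing difference in astrocytes. All mice of the groups used here carried loxP-flanked alleles of Nr3c1, the glucocorticoid receptor (GR) gene, and received an adeno-associated virus at birth (AAV2/5) with an astrocyte promoter (GfaABC1D). It encoded Cre in GR-KO mice and ΔCre, which does not recombine, in GR-Con mice, each with a membrane-targeted eGFP (eGFP-CAAX). Mice of both genotypes were normal-reared (NR) or dark-reared (DR), which gave 4 groups with 2 libraries each, 1 from a male and 1 from a female. The study reports from eGFP that its viruses are specific to astrocytes, and Cre UMIs were not split by cell type here. The sort kept DRAQ5-positive nuclei that were negative for GFP signal, although this eGFP is directed to the cell membrane. A GR-KO library therefore holds mixed nuclei and not a sorted population of recombined cells.

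Phosphodiesterases hydrolyse the cyclic nucleotides cAMP and cGMP and so end the signals that adenylyl and guanylyl cyclases start. The families differ in substrate and in what controls them. PDE1 enzymes are switched on by calcium and calmodulin, PDE2A is stimulated by cGMP, PDE3A is slowed by cGMP, PDE4, PDE7 and PDE8 enzymes act on cAMP, and PDE10A acts on both and is best known from striatal projection neurons. In the cortex these enzymes set how long and how far a cAMP or cGMP signal spreads in neurons and glia.

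In GENCODE vM21 on GRCm38 all 10 members are protein-coding genes. Pde10a lies at chr17:8525372-8986648 (plus strand), Pde2a at chr7:101421691-101512827 (plus), Pde1a at chr2:79834453-80129458 (minus), Pde1b at chr15:103503034-103530052 (plus) and Pde1c at chr6:56069804-56569103 (minus). Pde3a lies at chr6:141249269-141507448 (plus), Pde4b at chr4:102087543-102607259 (plus), Pde4d at chr13:108449948-109953461 (plus), Pde7b at chr10:20398004-20725078 (minus) and Pde8b at chr13:95024454-95250336 (minus). RefSeq promoter windows on GRCm38.p6 were matched for 9 members, 28 windows in all, and the 250 bases before each start were searched on both strands. The letters searched were TGACG (the core of a cAMP response element, CRE), TGANTCA (an AP-1 site), CACGTG (an E-box) and the palindromic GR element. The CRE core was found in 2 of the 28 windows, the AP-1 site in 1, and the other words in 0, and no window held more than 1 of these words. Among 32817 windows of the same length over all genes the CRE core stood in 17.7%, the AP-1 site in 6.75%, the E-box in 6.02% and the GR palindrome in 0.00914%. A match describes letters in a window and is not a bound site.

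The windows below belong to Pde10a and Pde2a, the members with most rearing calls, and to the 3 windows with a match, written 5′ to 3′ on the strand of the gene in lower case, with matched letters in capitals.
Pde10a, chr17:8801495-8801744 (plus): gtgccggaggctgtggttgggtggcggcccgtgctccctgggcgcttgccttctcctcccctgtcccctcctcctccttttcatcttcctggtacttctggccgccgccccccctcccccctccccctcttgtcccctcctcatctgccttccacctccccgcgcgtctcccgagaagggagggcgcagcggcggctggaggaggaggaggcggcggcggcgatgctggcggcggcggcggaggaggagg
Pde10a, chr17:8849735-8849984 (plus): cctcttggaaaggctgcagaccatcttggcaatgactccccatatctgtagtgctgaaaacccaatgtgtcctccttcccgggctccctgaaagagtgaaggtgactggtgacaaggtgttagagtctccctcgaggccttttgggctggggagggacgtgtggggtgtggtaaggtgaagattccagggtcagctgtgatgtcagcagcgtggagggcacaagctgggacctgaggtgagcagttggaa
Pde2a, chr7:101421441-101421690 (plus): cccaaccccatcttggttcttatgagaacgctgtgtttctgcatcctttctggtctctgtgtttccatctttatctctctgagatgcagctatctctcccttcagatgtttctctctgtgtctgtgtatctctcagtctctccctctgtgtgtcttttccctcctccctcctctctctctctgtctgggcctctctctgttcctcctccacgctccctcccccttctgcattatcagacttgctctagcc
Pde1a, chr2:80038903-80039152 (minus): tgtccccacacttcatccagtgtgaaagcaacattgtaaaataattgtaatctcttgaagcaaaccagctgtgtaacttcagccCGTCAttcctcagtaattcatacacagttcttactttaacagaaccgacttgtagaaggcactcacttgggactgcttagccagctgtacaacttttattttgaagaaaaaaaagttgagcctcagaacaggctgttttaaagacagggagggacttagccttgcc
Pde4b, chr4:102421305-102421554 (plus): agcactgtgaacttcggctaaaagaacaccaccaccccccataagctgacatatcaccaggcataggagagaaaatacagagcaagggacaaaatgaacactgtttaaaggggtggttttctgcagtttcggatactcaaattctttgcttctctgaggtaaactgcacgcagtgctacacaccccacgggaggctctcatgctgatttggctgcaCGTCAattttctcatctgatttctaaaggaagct
Pde1c, chr6:56369635-56369884 (minus): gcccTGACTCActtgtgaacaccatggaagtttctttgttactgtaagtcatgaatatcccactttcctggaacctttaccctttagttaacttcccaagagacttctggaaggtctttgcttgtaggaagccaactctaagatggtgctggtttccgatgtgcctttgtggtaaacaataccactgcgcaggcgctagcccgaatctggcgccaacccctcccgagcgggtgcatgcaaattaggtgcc
The Pde1a and Pde4b windows held the CRE core on the reverse strand (CGTCA) and the Pde1c window held TGACTCA. Neither Pde10a window nor the Pde2a window shown held any of the 4 words.

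The 8 libraries held 102330 nuclei, 9517 to 15161 per library, with 168632129 to 288774016 UMIs (unique molecular identifiers, each counting 1 captured transcript) per library. Levels are CPM after summing UMIs over the nuclei of a deposited cell type in 1 library, and a library enters where it had at least 10 nuclei of that type. Of 60 markers of the 20 deposited cell types, 50 were highest in the type they mark, and the markers of L5PT (0 of 2), L6IT (0 of 3), L4 (1 of 3), L5IT (1 of 3) and L2/3 (2 of 3) were not all highest there. Cre UMIs numbered 190 to 1054 in the 4 GR-KO libraries and 0 in the 4 GR-Con libraries, whereas UMIs of the ΔCre feature were counted in both, 140 to 785 in GR-KO and 41 to 83 in GR-Con, so that feature does not follow the genotype labels. Nr3c1 in astrocytes was at 207 to 263 CPM in GR-Con against 268 to 284 CPM in GR-KO libraries, so the counts of the targeted gene did not fall. The 10x kit counts 3′ ends, and whether the counted reads cover the deleted part of Nr3c1 is not given in the sources used here, so this value does not check the deletion. Library pairs shared 25 to 66 barcode sequences.

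The calcium-calmodulin enzymes had 3 distinct distributions. Pde1a was highest in 5 deep-layer excitatory types, with 2648 ± 331 CPM (SD, n = 8 libraries) in L5IT and 2196 ± 107 CPM in L6b, and it followed at 1627 ± 239 CPM in L6CT, 1289 ± 192 CPM in L5PT and 1133 ± 139 CPM in L6IT. The deep-layer type L5NP had only 167.5 ± 28.8 CPM, less than VLMC (1079 ± 140 CPM, n = 7), L2/3 (821 ± 123 CPM), SMC-Peri (691 ± 293 CPM, n = 6) or Sst interneurons (633 ± 68.8 CPM). Pde1a was lowest in Pvalb interneurons (35.7 ± 19.7 CPM), oligodendrocytes (38.8 ± 10.8 CPM) and astrocytes (45.9 ± 17.1 CPM). The L5IT and L6b ranges overlapped, and those of L6b and L6CT did not. Pde1b was highest in microglia (78.7 ± 9.41 CPM, n = 5) and then in L6b (46.0 ± 9.54 CPM, n = 8), without overlap, and stood at 1.36 ± 0.728 CPM in oligodendrocytes. Pde1c was led by oligodendrocyte precursors (OPC, 367 ± 37.2 CPM), followed by Vip interneurons (113 ± 20.8 CPM), and in 12 cell types, among them L5PT (1.15 ± 0.542 CPM), its mean was below 10 CPM (single libraries reached 17.6 CPM in Lamp5 and 12.7 CPM in ChC).

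Pde2a, the cGMP-stimulated enzyme, was broadly neuronal and endothelial. Endothelial cells had 238 ± 80.6 CPM (n = 7), L6b 206 ± 20.6 CPM (n = 8) and L2/3 a mean of 205.5 CPM with libraries from 142 to 335 CPM, while astrocytes ranged from 8.07 to 17.6 CPM and oligodendrocytes 10.3 ± 2.37 CPM. Pde3a, the cGMP-inhibited enzyme that is known from vascular smooth muscle, was highest in smooth muscle cells and pericytes (SMC-Peri, 339 ± 184 CPM, n = 6), OPC (204 ± 27.4 CPM, n = 8) and chandelier cells (ChC, 157 ± 53.7 CPM, n = 3). Across L4, L5IT, L5PT, L5NP, L6IT and L6CT its mean stayed below 1 CPM. Among excitatory types only L6b and L2/3 had means above 1 CPM.

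The 4 cAMP-specific members each had their own distribution. Pde4b was an oligodendrocyte lineage transcript, with 8103 ± 392 CPM in oligodendrocytes and 2130 ± 90.5 CPM in OPC against 1242 ± 108 CPM in the next type, L5IT, and none of these 3 ranges overlapped. Its lowest levels were in ChC (30.3 ± 33.8 CPM, n = 3) and Pvalb (48.1 ± 15.2 CPM, n = 8). Pde4d had its highest levels in L6b (3975 ± 305 CPM), L6CT (3559 ± 367 CPM) and L5PT (3023 ± 166 CPM) and its lowest in astrocytes (mean 319 CPM), and the astrocyte range of 294.5 to 360.5 CPM lay below that of every other type except VLMC. Pde7b was high in OPC (610 ± 71.8 CPM), L2/3 (498 ± 91.9 CPM), vascular leptomeningeal cells (VLMC, 485 ± 69.5 CPM, n = 7) and astrocytes (428 ± 75.5 CPM) and lowest in L5IT (mean 8.71 CPM, range 5.53 to 11.3 CPM). Pde8b had 1937 ± 869 CPM in SMC-Peri (n = 6) and 550 ± 52.5 CPM in L4, and astrocytes came next at 489 ± 69.1 CPM. L6b, which led for Pde4d, was the lowest type for Pde8b (41.9 ± 6.97 CPM).

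Pde10a, with both substrates, was counted in all neuron types and in the nuclei of vascular types. The 13 neuron types had means between 501 CPM (L5NP) and 1365 CPM (Lamp5). SMC-Peri (531 ± 214 CPM, n = 6) and endothelial cells (515 ± 115 CPM, n = 7) stood above L5NP, and VLMC (414 ± 262 CPM, n = 7) just below it. With the CPM of each nucleus averaged the order turned, with 330.5 CPM in SMC-Peri and 293 CPM in endothelial cells against 475 CPM in L5NP. A Pde10a UMI was carried by 55.4% of SMC-Peri and 51.4% of endothelial nuclei, against 91.1% of L5NP nuclei. Pan-neuronal transcripts summed to 6502 to 10480 CPM in endothelial, 1546 to 13750 CPM in SMC-Peri and 2322 to 10950 CPM in VLMC libraries, against 956 to 1706 CPM in astrocytes. The SMC-Peri library with the least of these transcripts (DR GR-KO male) also had the least Pde10a there (215 CPM, from 11 UMIs). The part of pan-neuronal transcripts in the vascular levels was not tested. Over all 20 types the order of neighbours was not resolved, since the ranges over libraries overlapped in 19 of 19 neighbouring pairs. OPC had 322 CPM and astrocytes 237 ± 207 CPM (n = 8), where the SD is nearly as large as the mean. Oligodendrocytes (55.6 ± 15.8 CPM) and microglia (59.9 ± 35.1 CPM, n = 5) were lowest. Overlap between neighbours in the order of levels was the rule for the other members too, from 15 of 19 pairs for Pde4b to 19 of 19 for Pde2a.

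**Figure D1:**
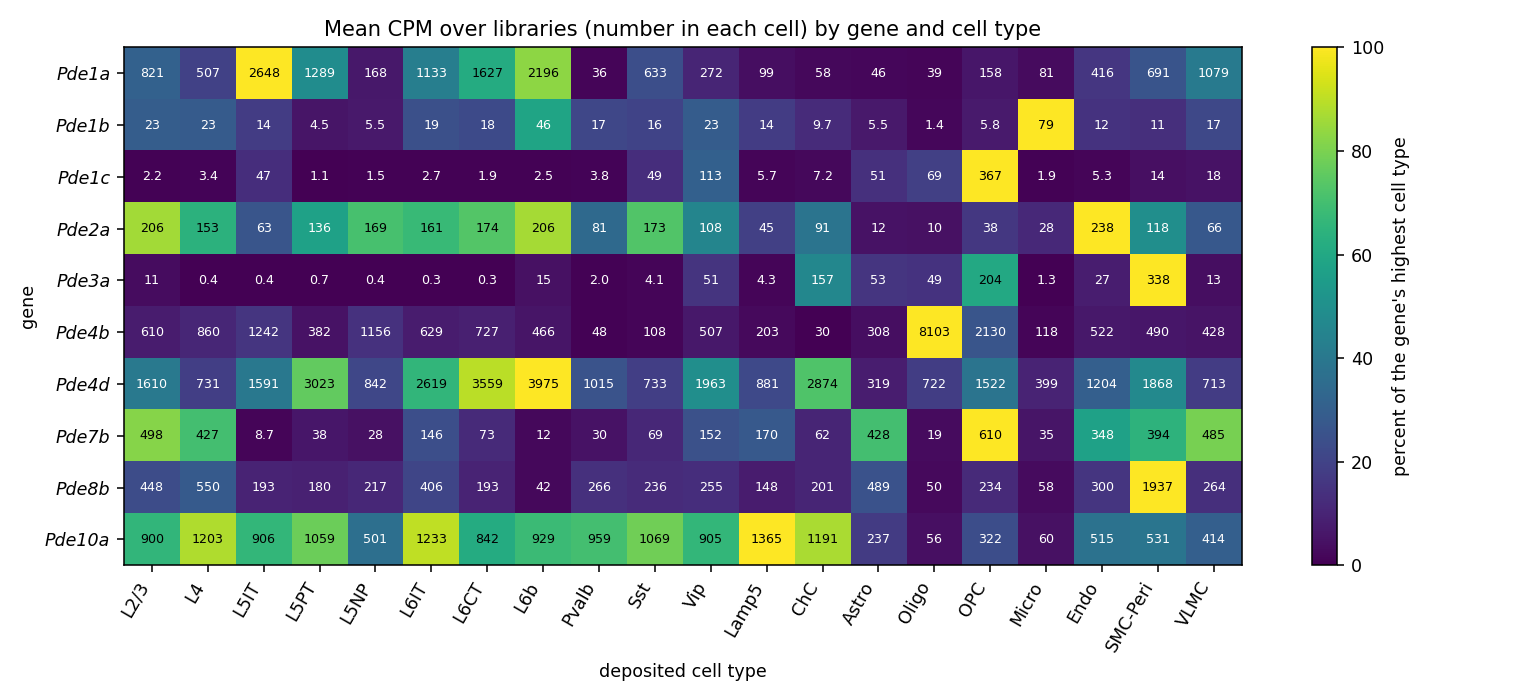
Mean CPM of each member (rows) in each deposited cell type (columns) over 3 to 8 libraries, with the value printed in each cell and the colour giving percent of that gene's highest type. Pde4b stands at 8103 CPM in oligodendrocytes and Pde10a is spread over all neuron types, and colours compare cell types within a gene and not genes with each other.

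By Pearson r of log2(mean CPM + 1) over the 20 cell types, among 11033 genes with at least 20 CPM in a type, the profiles nearest to Pde10a were those of Inha (r = 0.959), 4930415C11Rik (0.954) and Fbxo41 (0.942). For Pde1a they were Dpp10 (0.915), Mapk11 (0.892) and Gm26871 (0.888), and for Pde2a Stx3 (0.915), B230334C09Rik (0.912) and Trank1 (0.908). Pde4b was nearest to Jam3 (0.834), Hsph1 (0.805) and Tyro3 (0.801), and Pde3a to Dennd2a (0.836), Dnah7b (0.818) and Mmp15 (0.817). Pde8b was nearest to Arhgef17 (0.823), Tnks1bp1 (0.820) and Ctdspl (0.814), and Pde1b to Slc23a2 (0.818), Synj1 (0.801) and 2900089D17Rik (0.788). For Pde1c the names were Stk32a (0.808), Cacng4 (0.802) and Plpp4 (0.798), for Pde4d Gm45159 (0.799), Nup210 (0.798) and Dlg2 (0.783), and for Pde7b Nectin3 (0.777), Disp3 (0.758) and Ankrd6 (0.753). The 20 points of each r come from the same libraries, so these values are a description.

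In astrocytes Pde10a was the member that differed most with rearing, and it was chosen with the CPM of all 4 groups in view, so its values in astrocytes are given without a test and are not counted among the pairs below. It was at 698 CPM in the male and 262 CPM in the female NR GR-Con library, and at 247 and 300 CPM in the NR GR-KO libraries. The DR libraries had 52.5 and 90.5 CPM in GR-Con against 106 and 139 CPM in GR-KO, male first. All 4 NR values lay above all 4 DR values, and the NR GR-Con male library stood alone at more than 2 times any other. The log2 fold change of DR against NR was -2.76 in GR-Con, -1.08 in GR-KO and -1.92 over all libraries. Leaving out the NR GR-Con male library gave -1.92 in GR-Con and -1.43 over all libraries, and leaving out each library in turn gave -1.32 to -0.88 in GR-KO.

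The astrocyte UMIs of Pde10a were spread over many nuclei. In NR, 877 of 1117 nuclei carried at least 1 UMI in the GR-Con male library (78.5%, exact 95% interval 76.0 to 80.9%) and 590 of 1220 in the female library (48.4%, 45.5 to 51.2%). In the NR GR-KO libraries these were 598 of 924 (64.7%, 61.5 to 67.8%) and 705 of 980 (71.9%, 69.0 to 74.7%). In DR they were 339 of 1794 (18.9%, 17.1 to 20.8%) and 431 of 993 (43.4%, 40.3 to 46.6%) in GR-Con, and 320 of 1099 (29.1%, 26.4 to 31.9%) and 520 of 1359 (38.3%, 35.7 to 40.9%) in GR-KO. The intervals cover counting error only. Every NR share was above every DR share.

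The 10 nuclei with most UMIs held 6.26 to 13.5% of a library's Pde10a UMIs, and the highest single nucleus held 128 UMIs in the NR GR-KO female library against at most 18 in DR. Without those 10 nuclei the mean level was 344 ± 208 CPM in NR and 87.2 ± 33.1 CPM in DR (n = 4 each), against 377 ± 215 and 96.9 ± 35.8 CPM with them. The median depth of astrocyte nuclei was 5587 to 12124 UMIs in NR and 4889 to 7199 in DR. Thinned to 2000 UMIs, with 0 to 16 shallower nuclei left out per library, the share of nuclei with a UMI was 29.5 to 55.8% in NR and 8.97 to 20.3% in DR, again without overlap.

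Oligodendrocytes, a type in which Pde10a was lowest, are set beside astrocytes here. Whether the Pde10a UMIs of either type are stray transcripts was not tested. There 21.6 to 55.1% of nuclei carried a UMI at median depths of 7040 to 15571 UMIs, and the thinned share was 7.89 to 14.0%. The DR GR-Con male astrocytes (thinned share 8.97%, 52.5 CPM) lay within the oligodendrocyte range, and the other 3 DR astrocyte libraries, at 15.6 to 20.3%, lay just above it. Microglia, the other type with least Pde10a, had thinned shares of 6.16 to 18.7% (5 libraries, median depths of 2237 to 5261 UMIs). The 18.7% came from the NR GR-KO female library alone, the deepest, and the other libraries had 6.16 to 9.53%. Only with that NR library does the microglial range cover the DR GR-Con female (15.8%) and DR GR-KO male (15.6%) astrocytes. The DR GR-KO female astrocytes (20.3%) lay above the ranges of both types. Within the same library, DR GR-KO male astrocytes stood above oligodendrocytes (8.21%) and microglia (6.16%). DR GR-Con female astrocytes stood above oligodendrocytes (9.65%), with too few microglia there to compare. DR GR-Con male astrocytes (8.97%) did not stand apart from oligodendrocytes (9.4%) or microglia (8.85%). OPC, by the same thinned share, had 36.3 to 44.7% in NR and 44.8 to 48.3% in DR.

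Transcripts of other cells were read in the same astrocyte sums. The summed level of 8 pan-neuronal transcripts was 998 to 1706 CPM in NR and 956 to 1366 CPM in DR astrocytes, against 1015 CPM in the NR GR-Con male library with the most Pde10a. Nuclei with 3 or more Pde10a UMIs in that library had 1105 CPM of these transcripts and nuclei with none had 925 CPM, while 6 astrocyte markers summed to 14584 and 14054 CPM. The gap was wider in the DR GR-Con male (1485 against 946 CPM, with 34 nuclei of 3 or more UMIs) and DR GR-KO female libraries (1469 against 984 CPM, 106 nuclei), and it was reversed in the DR GR-Con female library (1234 against 1336 CPM, 54 nuclei). The 7 markers of striatal projection neurons summed to 17.2 to 31.0 CPM in all 8 libraries, and Drd1 and Drd2 stayed below 1 CPM. The 4 ependymal and choroid markers summed to 1.46 to 6.42 CPM. Markers of 2 other types were, like Pde10a, higher in every NR than in every DR library: the 3 inhibitory neuron markers at 15.5, 15.7, 23.0 and 25.2 CPM in NR against 11.5, 13.5, 12.6 and 11.1 CPM in DR, and the 4 oligodendrocyte markers at 108 to 186 against 68.5 to 101 CPM. Their part in the Pde10a difference was not tested. Fewer transcripts per astrocyte and fewer astrocytes with the transcript cannot be told apart from these values, since the share of nuclei with a UMI also falls when each nucleus holds fewer transcripts.

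**Figure D2:**
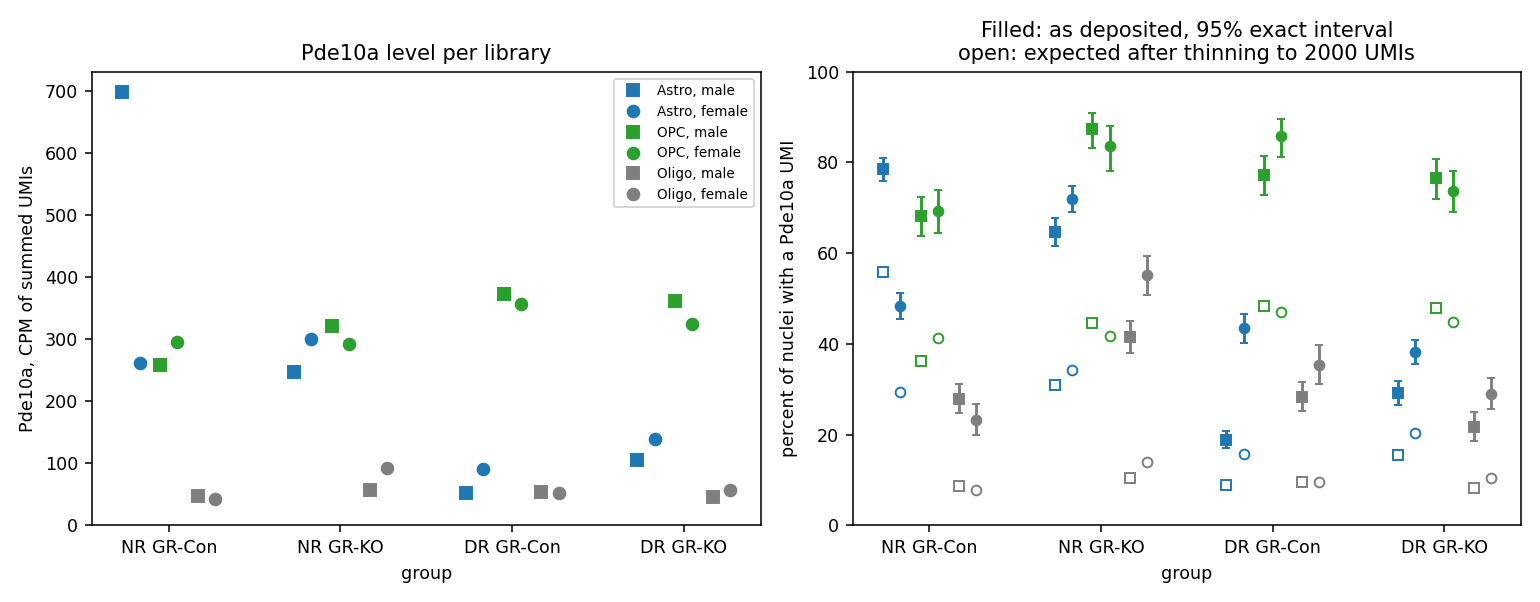
Left, Pde10a CPM of each library in astrocytes, OPC and oligodendrocytes by group, squares for male and circles for female libraries. Right, percent of nuclei with a Pde10a UMI, filled as deposited with exact 95% intervals and open after thinning to 2000 UMIs. The 4 NR astrocyte libraries sit between 247 and 698 CPM and the 4 DR ones between 52.5 and 139 CPM, and oligodendrocytes stay between 42.0 and 92.6 CPM.

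The comparison of DR with NR over all 8 libraries, with genotype as a term, asked which members respond to visual experience in each of 15 cell types. Of 147 member and cell type pairs, Pde10a in astrocytes left out, 17 were called (13 higher and 4 lower in DR), against 5.24% of all genes and cell types tested (2.62% higher and 2.63% lower). Since the members were chosen with results in view, nothing is read from that contrast of 11.6% with 5.24%. The same holds for each count of called members that is set beside all genes below. The adjusted p-values of single members come from values that were in view when the members were selected. They describe size against spread in these libraries and are not independent support, and neither is a call kept without a library. The median log2 fold change of the member pairs was 0.04, and the median over all genes ranged from -0.01 to 0.00 between cell types.

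Pde2a was higher in DR in excitatory neurons of 6 types and was called in no interneuron or glial type. In L2/3 it was at 142 and 150 CPM in the NR GR-Con and 157 and 152 CPM in the NR GR-KO libraries, and at 198 and 241 CPM in DR GR-Con and 335 and 268 CPM in DR GR-KO. Every DR library was above every NR library there. The log2 fold change was 0.77 ± 0.138 (SE, with adjusted p = 1.77e-06, edgeR likelihood ratio test, and 0.00796 with the quasi-likelihood F-test). In L4 the NR libraries lay between 116 and 122 CPM and the DR libraries between 144 and 231 CPM, a log2 fold change of 0.66 ± 0.120 (adjusted p = 6.56e-06 by edgeR).

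The other 4 types had log2 fold changes of Pde2a of 0.85 in L5IT, 0.54 in L6IT, 0.52 in L5PT and 0.41 in L6CT. L6IT and L5PT had no overlap between rearings, and L5IT and L6CT did. In L5IT the NR libraries had 37.9, 35.9, 70.7 and 35.9 CPM and the DR libraries 82.1, 62.1, 100.3 and 75.5 CPM, in the order GR-Con male, GR-Con female, GR-KO male, GR-KO female. The 3 VLMC markers in the same L5IT nuclei summed to 0.35, 0.60, 7.71 and 0.20 CPM in NR and to 5.24, 5.81, 4.45 and 5.13 CPM in DR, so that the NR GR-KO male library stood with DR in both, and their part in the result was not tested. By the quasi-likelihood test L5IT (adjusted p = 0.0631) and L5PT (0.0553) missed the threshold and L6IT (0.0364) and L6CT (0.0451) passed. The calls in L2/3, L4, L5PT and L6IT held without each library. The L5IT call was lost without the DR GR-KO male library (adjusted p = 0.0625). The L6CT call was lost without either NR GR-KO library, without the DR GR-Con female or without either DR GR-KO library (0.0535 to 0.107, edgeR). L5NP, L6b and all 4 interneuron types tested had log2 fold changes between -0.03 and 0.23 and were not called.

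Pde10a in neurons differed with rearing in both directions. In L5IT the NR libraries had 1127, 1220, 813 and 1214 CPM and the DR libraries 687, 689, 789 and 705 CPM, in the order GR-Con male, GR-Con female, GR-KO male, GR-KO female. The groups did not overlap, although the NR GR-KO male library lay just above the highest DR library, and the log2 fold change was -0.61 ± 0.154 (adjusted p = 0.00532, edgeR likelihood ratio; 0.057 quasi-likelihood). The VLMC markers given above for L5IT set the NR GR-KO male library apart from the other NR libraries in the same way. Astrocyte markers in the same nuclei summed to 691, 679, 546 and 648 CPM in NR and to 523, 508, 499 and 579 CPM in DR. The part of either marker list was not tested. In L5NP the NR libraries had 474 to 701 CPM and the DR libraries 281 to 448 CPM, and the log2 fold change was -0.75 ± 0.161 (adjusted p = 0.00079 and 0.0267 by the same tests).

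In L6CT, where the rearing groups overlapped, the log2 fold change of Pde10a was -0.76 ± 0.268 (adjusted p = 0.0391 and 0.0967), and astrocyte markers in these nuclei were also lower in DR, 904 to 1049 CPM in NR against 680 to 897 CPM, with their part not tested. The L5IT call was lost without the NR GR-Con female, the NR GR-KO female or the DR GR-Con female library (adjusted p 0.0562 to 0.0855). The L6CT call was kept only without the NR GR-KO male or the DR GR-KO male library, and was lost without each of the other 6 (0.0536 to 0.162).

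Lamp5 interneurons went the other way. Their NR libraries were tightly grouped at 1010, 1055, 1068 and 1018 CPM of Pde10a and their DR libraries reached 1389, 1807, 1772 and 1801 CPM. The log2 fold change was 0.76 ± 0.102 (adjusted p = 6.79e-10, edgeR likelihood ratio; 0.000416 quasi-likelihood), and it was called without each library in turn. OPC had 258 to 321 CPM in NR and 324 to 373 CPM in DR, a log2 fold change of 0.32 ± 0.0946 (adjusted p = 0.0439), and this call remained only when the NR GR-KO male library was left out (0.0691 to 0.216 without each of the others). Summed markers of excitatory neurons in Lamp5 were 28.0 to 49.1 CPM in NR and 16.7 to 40.3 CPM in DR.

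**Figure D3:**
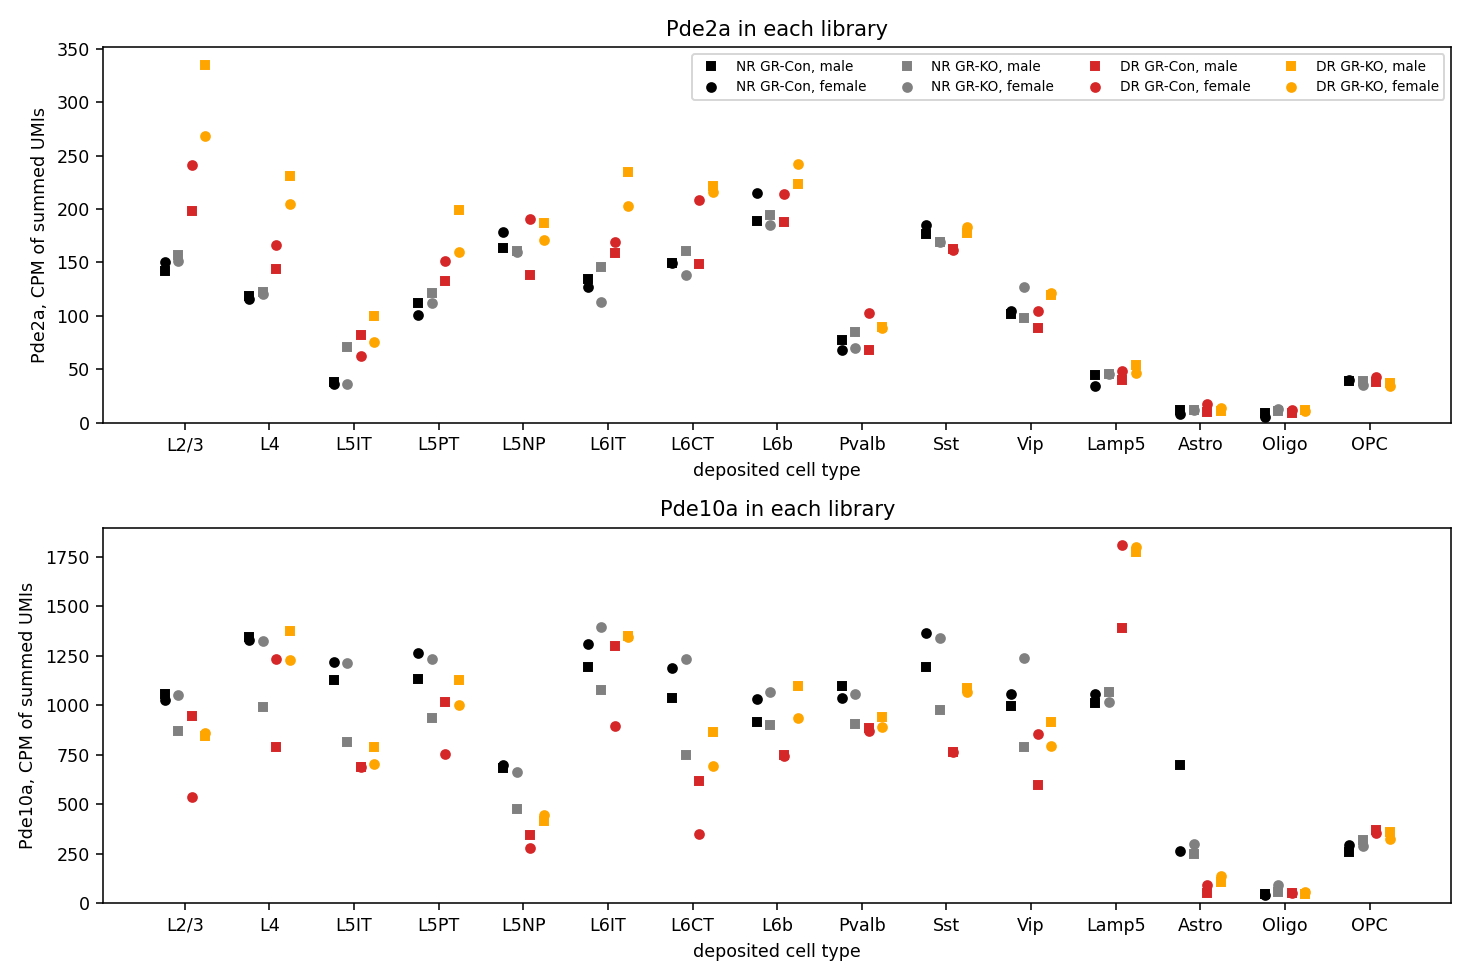
CPM of Pde2a (top) and Pde10a (bottom) in each of the 8 libraries by cell type, black and gray for NR, red and orange for DR, squares for male and circles for female libraries. In L2/3 Pde2a runs from 142 to 157 CPM in NR and from 198 to 335 CPM in DR, and in Lamp5 Pde10a runs from 1010 to 1068 CPM in NR and from 1389 to 1807 CPM in DR.

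Of the calcium-calmodulin members, Pde1a was called higher in DR in L4 and L2/3, Pde1c higher in L4 and L6CT and lower in Lamp5, and Pde1b in no type. Pde1a in L4 had 330 to 477 CPM in NR and 590 to 619 CPM in DR, a log2 fold change of 0.58 ± 0.124 (adjusted p = 0.000183, edgeR; 0.018 quasi-likelihood) that was called without each library. In L2/3 it had 650 to 772 CPM in NR and 817 to 1037 CPM in DR (log2 fold change 0.33 ± 0.115, adjusted p = 0.0292). That call was kept without the NR GR-Con female or the DR GR-Con male library and lost without each of the other 6 (0.0619 to 0.173). Pde1a in L5IT, where it is most abundant, had a log2 fold change of -0.16 and was not called.

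Pde1c differed at low levels. In L4 it had 1.76 to 3.36 CPM in NR and 3.74 to 5.06 CPM in DR, a log2 fold change of 0.95 ± 0.169 (adjusted p = 4.01e-06, edgeR) that was called without each library. In L6CT it had 0.69 to 1.85 and 1.29 to 3.83 CPM (a log2 fold change of 1.15 ± 0.383 with adjusted p = 0.0268, and 0.0894 quasi-likelihood), and 5 libraries each ended that call when left out, both NR GR-Con, the NR GR-KO male and both DR GR-KO libraries (0.0637 to 0.136). In Lamp5 it was lower in DR, at 4.48 to 17.6 CPM in NR and 1.11 to 3.23 CPM in DR (log2 fold change -1.87 ± 0.429, adjusted p = 0.00232), which became smaller when the NR GR-Con male library, the highest, was left out: the log2 fold change was -1.24 (adjusted p = 0.0815).

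Pde3a was higher in DR in L2/3, at 2.93, 4.32, 8.61 and 3.18 CPM in the NR libraries and 13.9, 25.0, 19.9 and 10.4 CPM in the DR libraries. The log2 fold change was 1.89 ± 0.392 (adjusted p = 6.19e-05, edgeR likelihood ratio; 0.0191 quasi-likelihood), without overlap, and it was called without each library. Pde4b, Pde4d, Pde7b and Pde8b had no called pair in this comparison, with log2 fold changes from -0.36 to 0.31 for Pde4b, -0.22 to 0.36 for Pde4d, -0.56 to 0.47 for Pde7b and -0.36 to 0.26 for Pde8b.

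**Figure D4:**
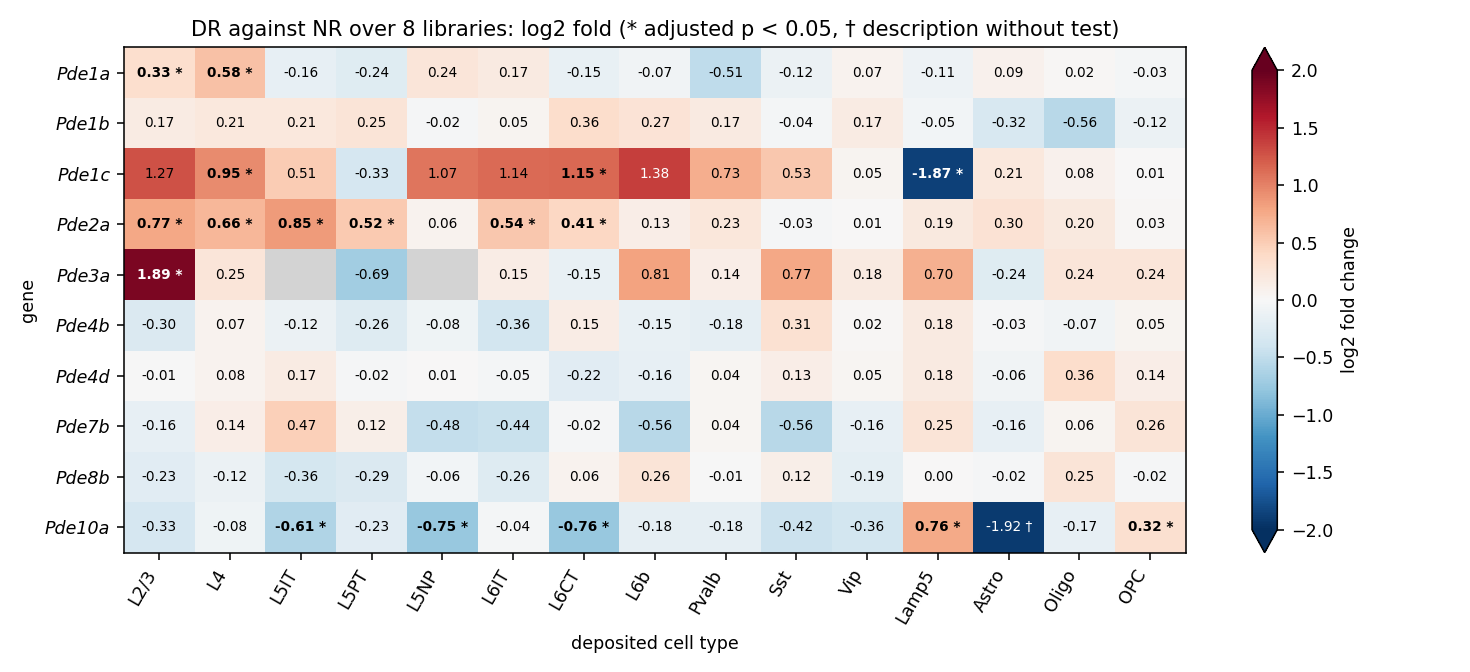
Log2 fold change of DR against NR over 8 libraries for each member (rows) in each of the 15 cell types tested (columns), red for higher in DR and blue for lower, with an asterisk at an adjusted p under 0.05 and gray where a gene was not tested. Pde2a is red in 6 excitatory types with values from 0.41 to 0.85, and Pde10a is blue in L5IT, L5NP and L6CT and red in Lamp5, and its astrocyte value of -1.92 has a dagger because it is a description.

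Within genotypes the same contrast was fitted on 4 libraries each. Again without Pde10a in astrocytes, in GR-Con 13 of 144 pairs were called (7 higher and 6 lower), against 2.25% of all genes tested (1.41% higher and 0.84% lower). In GR-KO 12 of 165 pairs were called (7 higher and 5 lower), against 3.66% (1.69% higher and 1.96% lower). With the quasi-likelihood F-test these counts were 6 and 7, against 0.495% and 0.857% of all genes. Nothing is read from these contrasts either, since the members were selected on values of the same libraries. Pde10a fell in GR-Con in L5NP (log2 fold change -1.14 ± 0.152), Sst interneurons (-0.75 ± 0.135) and L5IT (-0.77 ± 0.146), each called by both edgeR tests and without each library. Of the 7 pairs called higher in GR-Con, the quasi-likelihood test kept Pde3a in L2/3 (adjusted p = 0.0341, edgeR) and Pde2a in L5IT (0.0204). Pde10a also fell in L6CT (-1.19 ± 0.332) and rose in Lamp5 (0.67 ± 0.160) by the likelihood ratio test alone (quasi-likelihood adjusted p 0.244 and 0.0557). Those calls were lost without either NR GR-Con library, and for Lamp5 also without the DR GR-Con female library (0.141 to 0.514).

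In GR-KO, Pde10a rose in Lamp5 by 0.83 ± 0.144 on the log2 scale (adjusted p = 8.05e-06, edgeR; 0.00824 quasi-likelihood). Sst, called in GR-Con, had Pde10a at 976 and 1339 CPM in NR GR-KO against 1087 and 1067 CPM in DR GR-KO and was not called there, and this difference between genotypes is covered by the interaction test below. Pde7b in Sst fell in GR-Con from 81.2 and 89.8 to 45.7 and 36.7 CPM (log2 fold change -1.06 ± 0.159, adjusted p = 7.17e-08, edgeR). With all 8 libraries in the fit, whose NR GR-KO pair read 31.7 and 120 CPM, that adjusted p was 0.574.

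Pde2a rose in both genotypes in L2/3, by 0.54 ± 0.166 on the log2 scale in GR-Con and 1.01 ± 0.180 in GR-KO. The GR-Con call was kept only without the DR GR-Con male library (0.182 to 0.456 without each of the others). In GR-Con it also rose in L5IT (0.97 ± 0.190), and in GR-KO in L4 (0.90 ± 0.139), L6IT (0.77 ± 0.171) and L6CT (0.57 ± 0.159). By the quasi-likelihood test L2/3 missed the threshold in both genotypes (adjusted p = 0.0799 in GR-Con and 0.051 in GR-KO, edgeR), as did L6IT (0.0655) and L6CT (0.069) in GR-KO. The L6IT call was lost without the DR GR-KO male library (adjusted p = 0.121) and the L6CT call was kept only without the NR GR-KO male library (0.149 to 0.297 otherwise).

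Other members called in GR-Con were Pde3a in L2/3 (log2 fold change 2.37 ± 0.352), Pde1c in L4 (1.09 ± 0.241) and L5IT (1.12 ± 0.298), Pde7b in L5IT (0.71 ± 0.237) and, lower in DR, Pde8b in L2/3 (-0.46 ± 0.152). The quasi-likelihood adjusted p was 0.137 and 0.0809 for Pde1c, 0.12 for Pde7b and 0.0726 for Pde8b, and Pde1c and Pde7b in L5IT also missed the threshold in DESeq2 (0.349 and 0.399). VLMC markers in L5IT went from 0.35 and 0.60 CPM in NR GR-Con to 5.24 and 5.81 CPM in DR GR-Con. Mean Pde7b was 485 CPM in VLMC against 8.71 CPM in L5IT, and the part of VLMC transcripts in that call was not tested. Both Pde1c calls were lost without the NR GR-Con male library (adjusted p 0.234 and 0.0999, edgeR). The Pde7b call was kept only without the DR GR-Con male library, and the Pde8b call was lost without each of the 4 libraries (0.0864 to 0.645). In GR-KO the others were Pde1a in L4 (0.58 ± 0.137) and Pde1c in L4 (0.81 ± 0.244), both lost without either DR GR-KO library and the second also without the NR GR-KO female library (adjusted p = 0.0885), and Pde1a lower in Pvalb (-1.22 ± 0.252) and in astrocytes (-0.58 ± 0.149). The quasi-likelihood adjusted p was 0.103 for Pde1c in L4 and 0.065 for Pde1a in Pvalb, which DESeq2 did not call either (0.212). The Pvalb call was lost without the DR GR-KO female library (0.094). The astrocyte call was kept only without the NR GR-KO female library and had an adjusted p of 0.742 with all 8 libraries in the fit. Pde1a there was at 66.5 and 54.7 CPM in NR GR-KO and 35.7 and 40.5 CPM in DR GR-KO, and pan-neuronal transcripts in the same nuclei went from 1540 and 1706 to 956 and 1017 CPM, with their part in the result not tested. Pde1a in Pvalb was at 30.9 and 53.8 CPM in NR and 19.0 and 16.8 CPM in DR, and excitatory markers in the same nuclei summed to 30.2 and 37.1 CPM in NR and 17.4 and 13.4 CPM in DR, and their part in the result was not tested.

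In VLMC, tested in GR-KO only, 3 members fell steeply in DR. Pde10a was at 606 and 813 CPM in NR and 108 and 134 CPM in DR (log2 fold change -2.79 ± 0.386), Pde2a at 122 and 90.6 against 27.1 and 10.0 CPM (-2.80 ± 0.494) and Pde4b at 462 and 696 against 90.2 and 234 CPM (-2.06 ± 0.498). All 3 were called by both edgeR tests and without each library, with as few as 20 nuclei in a library, and 19.9% of all genes tested in VLMC were called. Neuronal transcripts moved the same way there: the 8 pan-neuronal transcripts summed to 9229 and 9875 CPM in NR GR-KO and to 2322 and 3171 CPM in DR GR-KO, while the 3 VLMC markers went from 454 and 558 to 1190 and 995 CPM. Pde1a and Pde7b, which VLMC hold at levels near 1079 and 485 CPM, had log2 fold changes of 0.12 and -0.19, and Pde4d and Pde8b had -1.33 and -1.03 without a call. The part of the neuronal transcripts in the fall was not tested.

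What GR loss in astrocytes changed was asked by setting GR-KO against GR-Con. In the fit of all 8 libraries that also held a rearing term, 1 of 147 pairs was called (higher in GR-KO), against 0.4% of all genes and cell types tested (0.176% higher) and 4.79% of those in astrocytes. This was Pde3a in astrocytes, at 44.9, 48.7, 27.4 and 38.1 CPM in the GR-Con libraries and 51.9, 80.4, 58.4 and 70.8 CPM in the GR-KO libraries, NR male and female before DR male and female. No GR-Con library reached the lowest GR-KO library, and the log2 fold change was 0.72 ± 0.194 (adjusted p = 0.00741 by edgeR's likelihood ratio, 0.0661 with its quasi-likelihood F-test, 0.00478 in DESeq2). The call was lost without the NR GR-KO female (adjusted p = 0.0957) or the DR GR-KO female library (0.0761).

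Pde3a is also a transcript of OPC, and the 3 OPC markers (Pdgfra, Cspg4 and Vcan) summed in the same astrocytes to 30.7 and 32.4 CPM in NR GR-Con, 76.0 and 96.1 CPM in NR GR-KO, 53.0 and 54.3 CPM in DR GR-Con and 130 and 123 CPM in DR GR-KO. The sum moved with genotype in the same direction as Pde3a. Vcan was at 25.6 to 51.2 CPM in GR-Con against 70.4 to 126 CPM in GR-KO. The study reports Vcan itself as induced by GR-KO in astrocytes, so across genotypes it cannot be read as a measure of OPC transcripts. Pdgfra was at 1.49 to 2.39 against 1.83 to 3.97 CPM, and at 547 to 662.5 CPM in OPC. Cspg4 was at 1.62 to 3.29 against 2.01 to 3.19 CPM, and at 170.5 to 283 CPM in OPC. The part of OPC transcripts in the Pde3a result was not tested. The other 8 members tested in astrocytes had log2 fold changes over all libraries between -0.07 (Pde8b) and 0.50 (Pde1c) and were not called. Among them Pde4b was at 267 ± 28.6 CPM in GR-Con against 348 ± 41.3 CPM in GR-KO (n = 4 each, log2 fold change 0.36 ± 0.129, adjusted p = 0.0952, edgeR). Pde10a, given without a test, was at 276 ± 296 against 198 ± 90.9 CPM (log2 fold change -0.04).

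In NR, 3 of 159 pairs were called, all higher in GR-KO, against 0.804% of all genes tested (0.491% higher). With sex as a term 9 pairs were called (7 higher and 2 lower), and the share over all genes in that fit is not given. Pde1a in astrocytes was at 35.9 and 26.4 CPM in GR-Con against 66.5 and 54.7 CPM in GR-KO, a log2 fold change of 0.89 ± 0.179 (adjusted p = 3.41e-05, edgeR likelihood ratio; 0.0117 quasi-likelihood; 0.000277 DESeq2), called without each library. In oligodendrocytes it was at 29.6 and 28.5 against 43.2 and 54.7 CPM (0.71 ± 0.177, adjusted p = 0.00781; 0.138 quasi-likelihood), and this call was kept only without the NR GR-KO male library (0.113 to 0.241 otherwise). Pan-neuronal transcripts moved with both: in astrocytes they summed to 1015 and 998 CPM in GR-Con against 1540 and 1706 CPM in GR-KO, and in oligodendrocytes to 609 and 543 against 963 and 1274 CPM, and their part in the result was not tested. Pde1c in astrocytes (37.3 and 40.2 against 62.5 and 51.2 CPM, log2 fold change 0.49 ± 0.154, adjusted p = 0.026) missed the threshold by the quasi-likelihood test (0.0579) and was kept only without the NR GR-KO female library (0.114 to 0.454 otherwise). The pan-neuronal transcripts of astrocytes given above moved with Pde1c too. So did oligodendrocyte markers (128 and 108 against 186 and 147 CPM) and inhibitory neuron markers (15.5 and 15.7 against 23.0 and 25.2 CPM). The OPC marker sum, mostly Vcan, went from 30.7 and 32.4 to 76.0 and 96.1 CPM. The part of these markers in the Pde1c result was not tested. With all 8 libraries in the fit none of the 3 pairs was called (adjusted p 0.105 to 0.571).

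In DR, 6 of 142 pairs were called, against 0.513% of all genes tested (0.319% higher and 0.194% lower), and 1 of them, Pde10a in Sst, also by the quasi-likelihood test, which called 0.00431% of all genes. Pde10a in Sst was at 762 and 766 CPM in GR-Con against 1087 and 1067 CPM in GR-KO, a log2 fold change of 0.52 ± 0.113 (adjusted p = 0.00327 likelihood ratio, 0.0378 quasi-likelihood, edgeR), lost without either DR GR-KO library (0.294 and 0.443) and with all 8 libraries in the fit (0.476). Pde7b in Sst (0.85 ± 0.175), Pde4b in Lamp5 (0.71 ± 0.175), Pde2a in L4 (0.52 ± 0.147) and Pde3a in astrocytes (1.01 ± 0.249) were higher, and Pde1a in Pvalb was lower (-1.28 ± 0.329). In each of these types summed oligodendrocyte markers were higher in both GR-KO than in both GR-Con libraries. In Lamp5, where Pde4b was at 186 and 141 CPM in GR-Con against 255 and 273 CPM in GR-KO, they were at 47.4 and 39.6 against 51.2 and 197 CPM. They were at 50.0 and 69.9 against 103 and 99.5 CPM in L4 and at 45.25 and 54.6 against 67.0 and 72.5 CPM in Sst. Pvalb, where Pde1a was lower, had 58.0 and 79.1 against 82.8 and 91.35 CPM, and astrocytes had 90.6 and 68.5 against 101 and 95.9 CPM. The part of these markers in the results was not tested. Pde3a in astrocytes was at 27.4 and 38.1 CPM in GR-Con against 58.4 and 70.8 CPM in GR-KO (adjusted p = 0.0101 and 0.328 by the edgeR tests). Pde1a in Pvalb rested on the DR GR-Con female library, which had 62.4 CPM against 26.0 CPM in the male library and 34.7 CPM of excitatory markers against 20.6 CPM. All 6 calls were lost without the DR GR-KO female library, and the number of member pairs called moved with the library left out.

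**Figure D5:**
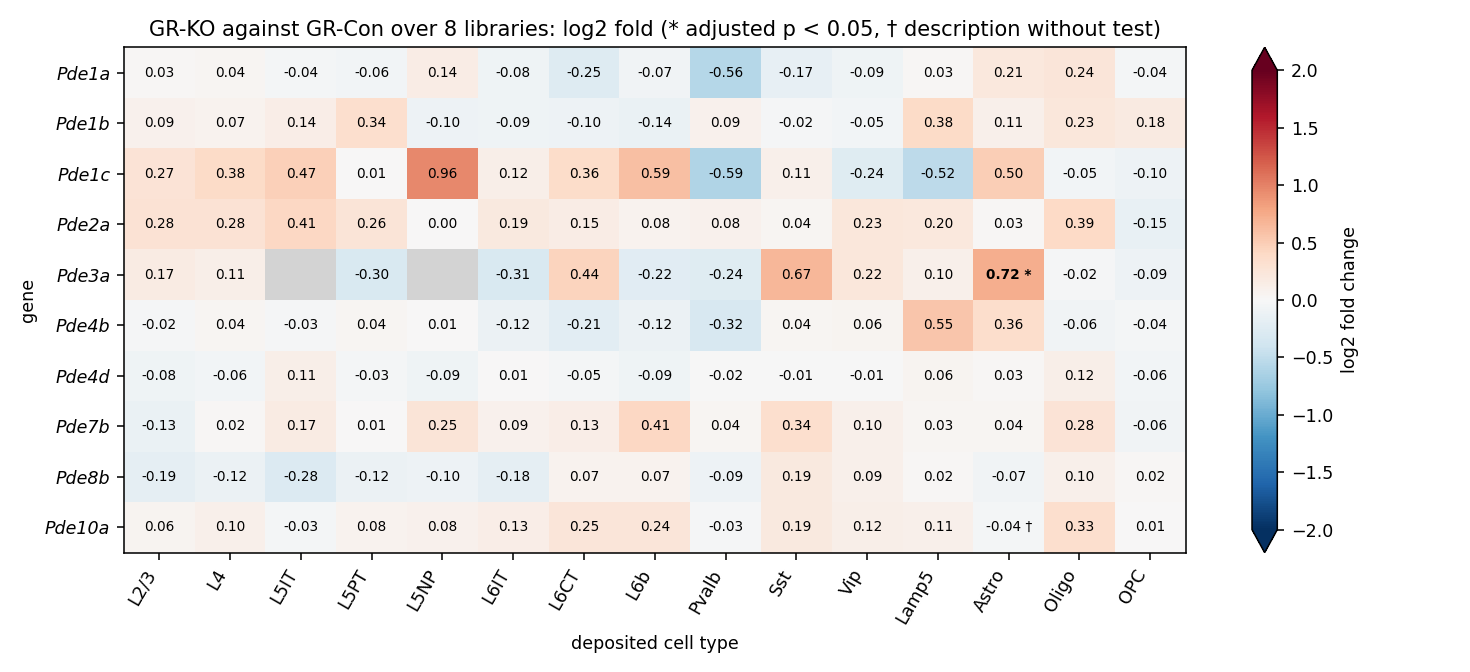
Log2 fold change of GR-KO against GR-Con over 8 libraries for each member (rows) in each of the 15 cell types tested (columns), with an asterisk at an adjusted p under 0.05. The only asterisk stands at Pde3a in astrocytes, at 0.72, gray marks genes not tested and the dagger marks Pde10a in astrocytes, a description.

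Whether a genotype difference itself differed between rearings was tested with 2 libraries per group, so a miss does not show that the differences were alike. The interaction called 0 of 147 pairs by each of the edgeR likelihood ratio test, the edgeR quasi-likelihood test and DESeq2 (135 pairs with an adjusted p), against 0.181%, 0.00276% and 0.13% of all genes tested, and 17, 18 and 16 pairs had an unadjusted p under 0.05. For Pde10a in astrocytes, again without a test, the genotype difference was -0.87 on the log2 scale in NR and 0.81 in DR. It was -0.01 in NR without the NR GR-Con male library. The difference between the NR and DR values, -1.68, was between -2.21 and -0.83 when 1 library was left out.

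The wider cyclic nucleotide pathway was read from a list of 63 genes outside the members, of which 61 were tested in at least 1 type. Over all libraries DR differed from NR in 58 of 794 gene and cell type pairs (39 higher and 19 lower), 7.3% against 5.24% of all genes. Nos1, which makes the nitric oxide that activates soluble guanylyl cyclase, was called higher in DR in 6 excitatory types, by 1.14 to 1.77 on the log2 scale. Its mean CPM in NR and DR was 0.54 and 1.32 in L5PT, 0.79 and 1.91 in L4 and 0.90 and 2.355 in L6CT. L6IT had 2.02 and 4.86 CPM, L2/3 4.75 and 14.7 CPM and L5IT 11.2 and 28.1 CPM. By the quasi-likelihood test only L2/3 and L6CT passed (adjusted p = 0.0323 and 0.0203, edgeR, against 0.0664 to 0.107 in L5IT, L4, L6IT and L5PT), the rearing groups overlapped in L2/3, L4 and L5IT, and the L4 and L5PT calls were kept in 3 of 8 fits that left out 1 library. The cAMP-producing adenylyl cyclases Adcy1 and Adcy9 were each higher in 4 excitatory types (0.33 to 0.59 and 0.40 to 0.65). Prkg1, the cGMP-dependent kinase, was higher in 5 types (0.35 to 0.55) and Crtc3, a CREB coactivator, in 4 (0.33 to 0.63). Among these, Adcy1 in L6IT (quasi-likelihood adjusted p = 0.0519, edgeR), Adcy9 in L5PT (0.0946) and Prkg1 in oligodendrocytes (0.122) and L6IT (0.0526) missed the threshold, and Adcy1 in L6IT was kept in 2 of 8 fits that left out 1 library and the others in 3 of 8 each. Prkg1 was at 1388 to 1659 CPM in OPC. In oligodendrocytes it was at 159.5, 119, 105 and 189 CPM in NR and 178, 210, 237 and 215 CPM in DR. The 3 OPC markers in the same nuclei summed to 216, 148, 104 and 187 CPM in NR and 202, 258, 250 and 249 CPM in DR. Both are in the order GR-Con male, GR-Con female, GR-KO male, GR-KO female. The part of OPC transcripts in the Prkg1 result was not tested.

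Among pathway genes lower in DR, Pde6c, known from cone photoreceptors and present here at 0.18 to 5.16 CPM, fell in 5 excitatory types (-1.64 to -1.07), with quasi-likelihood adjusted p of 0.0503 in L5IT and 0.0507 in L6IT (edgeR). Pkib, an inhibitor of protein kinase A, fell in 3 types (-1.12 to -0.59), and Pde4c (-1.19 and -1.08) and Prkg2 (-0.57 and -0.50) in 2 each. The calls of Pkib in L4 (quasi-likelihood adjusted p = 0.0865), Pde4c in L6IT (0.101) and Prkg2 in L4 (0.0932) missed the edgeR quasi-likelihood threshold and were kept in 2 of 8 such fits each. Prkar1b, a regulatory subunit of protein kinase A, fell in L2/3 and astrocytes and rose in Lamp5 (-0.58 to 0.37), and it was the only pathway gene called in astrocytes, at 13.4 CPM in NR and 8.70 CPM in DR (quasi-likelihood adjusted p = 0.176, edgeR, and called in 3 of 8 fits that left out 1 library). Of the 13 other phosphodiesterases in the list, 12 were tested, with 4 pairs higher and 9 lower of 132.

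Genotype gave 5 called pathway pairs of 794 (0.63%, against 0.4% of all genes), all in astrocytes, where 4.79% of genes were called. Adcy8, a calcium-stimulated adenylyl cyclase, was at 19.0 CPM in GR-Con against 49.4 CPM in GR-KO, a log2 fold change of 1.39 ± 0.178 (adjusted p = 2.98e-12, edgeR likelihood ratio; 0.00191 quasi-likelihood). Gucy1a1, a subunit of soluble guanylyl cyclase, rose from 17.5 to 31.0 CPM (0.79 ± 0.190), Adcy2 from 503 to 820 CPM (0.68 ± 0.167) and Pde8a, a cAMP-specific phosphodiesterase, from 13.7 to 19.5 CPM (0.47 ± 0.134). Rapgef3, the cAMP-activated exchange factor EPAC1, fell from 238 to 172 CPM (-0.49 ± 0.123). All 5 passed both edgeR tests and had no overlap between genotypes, and 4 of them held without each library, while Pde8a held in 3 of 8 such fits and had an adjusted p of 0.0662 by DESeq2. These values are means of 4 libraries each, and of the OPC markers in the same nuclei Vcan separated the genotypes while Pdgfra and Cspg4 overlapped. The part of OPC transcripts in these results was not tested.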

How the data were processed

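Single nuclei of V1 were captured in droplets (10x 3′ kit) for RNA sequencing in 8 libraries. According to the methods of the study and the processing notes, the authors sorted DRAQ5-positive, GFP-negative nuclei, made counts with Cell Ranger 8.0.1 on mm10 with an eGFP sequence, filtered and clustered with Seurat 5.3.0 and removed predicted doublets with DoubletFinder. The values deposited by the authors are raw UMI counts for each gene in each nucleus. Library names and cell types were used as deposited. Summed over genes, the counts matched the deposited total of each nucleus in 102330 of 102330 nuclei.

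The members, the lists and the tests were chosen with earlier results of these data known. Counts were summed per library and cell type and, in R 4.3.3, fitted with edgeR 4.0.16 (filterByExpr, TMM, estimateDisp, glmFit and the two-sided likelihood ratio test glmLRT) for cell types with at least 10 nuclei in each library of the fit. For these data the study's methods name a pseudobulk glmLRT test of edgeR and do not name filterByExpr, TMM or estimateDisp. P-values were adjusted by Benjamini-Hochberg over all genes tested within a cell type and called under 0.05. The SE was derived from the log2 fold change and its likelihood ratio statistic (fold over the root of the statistic). It is therefore not given for Pde10a in astrocytes. Pairwise comparisons used 4 libraries. The edgeR quasi-likelihood F-test, DESeq2 1.42.0, RLE factors, no low-count filter, sex as a term and leaving out each library were alternatives. The labels give separate samples of a group, with 2 mice per group by the methods of the study. Library names give sex but no replicate number, so libraries are named by group and sex. Named were all 10 members where called and in astrocytes, and of the pathway list the genes called in astrocytes plus up to 5 per direction called in most cell types. The scripts were tested on simulated counts with known changes. UMI depth sets the precision of low levels, and intervals cover counting error only.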

Additional observations from a re-analysis of the deposited data

Results flagged for a closer look

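The rearing difference of 1 gene ran in opposite directions in different cell types of the same libraries. For each member called higher in DR in 1 type and lower in another over all libraries, the log2 ratio of its CPM between both types was taken in each library, with a pseudocount of 1 CPM, and its mean over 4 NR libraries was subtracted from its mean over 4 DR libraries. The 8 type pairs were chosen by their calls in these libraries, which fixes the sign of the difference, so it was not tested. For Pde10a the DR minus NR difference of the log2 ratio was 1.29 for Lamp5 against L5IT, 1.46 for Lamp5 against L5NP, 1.48 for Lamp5 against L6CT, 0.87 for OPC against L5IT, 1.04 for OPC against L5NP and 1.06 for OPC against L6CT. For Pde1c it was 2.16 for L4 against Lamp5 and 2.14 for L6CT against Lamp5. In the 5 type pairs without L6CT every DR library lay above every NR library in one type and below every NR library in the other, and in L6CT the rearings overlapped. Without a pseudocount or without each library the differences ran from 0.79 to 1.65 for Pde10a and from 1.71 to 2.93 for Pde1c. The choice of the type pairs favours this sign, so its being kept is no further support.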

How the results depend on the processing

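No paired analysis was possible because the library names carry no replicate number. Sex entered as a term instead. By the quasi-likelihood test the count of called member pairs was 6 for DR against NR in GR-Con, 7 for the same in GR-KO, 1 for GR-KO against GR-Con in DR and 0 over all libraries (13 pairs with an unadjusted p under 0.05), and the pathway list had 37 rearing calls. With sex as a term the counts were 21, 24 and, for genotype, 9 in NR and 4 over all libraries. With all 8 libraries in the fit they were 2 for genotype in DR and 0 in NR (10 pairs with an unadjusted p under 0.05). Without the low-count filter genotype over all libraries gave 2. Leaving out each library gave 6 to 30 pairs for DR against NR in GR-Con, 7 to 36 in GR-KO, 12 to 21 over all libraries, 2 to 12 for genotype in NR, 0 to 19 in DR, 0 to 3 over all libraries, and 0 to 4 for the interaction, with 31 to 71 and 4 to 9 for the pathway list by rearing and by genotype. The extremes came without the NR GR-Con male (6) and DR GR-Con male (30), the DR GR-KO male (7) and NR GR-KO male (36), the NR GR-Con male (2) and NR GR-KO female (12), the DR GR-KO female (0) and DR GR-Con male (19), for genotype over all libraries without the DR GR-KO female (0) and DR GR-Con male (3), and for the interaction without the NR GR-KO female (4) libraries. For the pathway list they came without the DR GR-KO male (31) and DR GR-Con male (71) by rearing and without the NR GR-KO female (9) by genotype. Leaving out 1 of 4 leaves an arm with 1 library, which is assumed to vary like the others. The shares of all genes called with sex as a term, with all 8 libraries, without the low-count filter or with 1 library left out are not given. Neither are those of the quasi-likelihood test for genotype or rearing over all libraries. No count of members or of pathway genes in those fits, here or above, is therefore read as a result about these genes. The cause was not tested.

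Of 52 called pairs, none changed sign under any alternative run. The pairs were picked by their calls in these libraries, which favours a kept sign, so this is no further support. A gene and cell type called in more than 1 comparison is counted each time. The call was lost in 25 by the quasi-likelihood test, in 7 by DESeq2, in 6 without the filter in 0 with RLE factors or sex as a term, and in 11 of the 31 pairs of 1 genotype or 1 rearing that could be fitted with all 8 libraries, and 22 kept it without each library. The described genotype value of Pde10a in astrocytes over all libraries ran from -0.37 to 0.47 without 1 library and was above 0 without the NR GR-Con male (0.47), NR GR-KO male (0.24) or NR GR-KO female (0.13) library. The mean share of astrocyte nuclei with a Pde10a UMI was 65.9% in NR and 32.4% in DR as deposited, 37.6% and 15.1% after thinning and 47.6% and 12.1% for at least 2 UMIs. Pde1b in microglia was at 65.2 CPM with libraries under 10 nuclei included. Depth limits members below 1 CPM.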

Other observations

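Pde7b differed between the male and the female library within groups. In NR GR-KO the female library was higher in 15 of 15 cell types with enough nuclei in all libraries, with a median log2 difference of 0.65, and in NR GR-Con in 11 of 15 (0.25). In DR the female library was higher in 9 of 15 types in GR-Con (0.04) and in 10 of 15 in GR-KO (0.05). In L4 the male and female libraries had 305 and 533 CPM in NR GR-Con and 295 and 515 CPM in NR GR-KO, against 378 and 485 CPM and 444 and 459 CPM in DR. Each sex is 1 library per group, so animal, sex and library cannot be told apart.

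The NR GR-KO male library was the lowest of the 4 NR libraries for Pde10a in 12 of 15 cell types, for Pde7b in 11 and for Pde8b in 11, and the highest for Pde4d in 8. Its Pde10a in L4 was 993 CPM against 1326 to 1346 CPM in the other NR libraries, and in Sst 976 CPM against 1192 to 1366 CPM. Astrocyte nuclei with a UMI of Cre or eGFP (51 to 140 per library) had less Pde10a than nuclei without one in 6 of 8 libraries, from 494 against 713 CPM in the NR GR-Con male library to 238 against 249 CPM in the NR GR-KO male library. In both DR GR-KO libraries they had more, 114.5 against 104 CPM (male) and 155 against 137.5 CPM (female).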
